A study of Mus musculus with 9 samples.

Results

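The proteasome and immunoproteasome genes described here are the protein-coding mouse genes whose symbols begin with Psma, Psmb, Psmc, Psmd, Psme, Psmf or Psmg followed by a number in the GENCODE M21 annotation. The rule found 50 genes among 55401 gene IDs, and 49 of them were among the 13501 genes with enough counts to be tested. They were read in poly(A) RNA of primary peritoneal macrophages that thioglycollate, an irritant, had drawn into the abdominal cavity. The macrophages came from homozygous Stat6S807E/S807E mice (SE), homozygous Stat6S807A/S807A mice (SA) and wild-type mice (WT), with 3 libraries per genotype, and were held in DMEM with 10% fetal bovine serum and left to adhere briefly before RNA was taken. STAT6 carries signals of the interleukin-4 and interleukin-13 receptors to the genome, and the alleles replace its serine 807 with glutamate, which bears a negative charge, or with alanine, which cannot be phosphorylated. The study's title asks about phosphorylation at that serine and macrophage senescence, and the comparisons ask how the mutants differ from WT and from each other.

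The proteasome is the protease that degrades proteins tagged with ubiquitin. Its barrel-shaped core has outer rings of alpha subunits and inner rings of beta subunits, of which PSMB5, PSMB6 and PSMB7 cut peptide bonds, and a cap with a ring of ATPases, ubiquitin receptors and a lid recognises, unfolds and feeds in the substrate. Immune cells and cells exposed to interferon gamma build the immunoproteasome, in which PSMB8, PSMB9 and PSMB10 take the places of PSMB5, PSMB6 and PSMB7 and supply peptides for MHC class I. By role the 50 genes held 8 alpha ring genes, 7 standard beta ring genes, 3 immunoproteasome genes, the thymoproteasome gene Psmb11, 6 ATPases and 3 other subunits of the base of the cap, 8 lid subunits, 5 activators, 1 inhibitor and 7 assembly chaperones. Psmc3ip also matches the rule, though its product is a meiotic recombination factor and no proteasome subunit.

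The libraries held between 17286617 and 24618608 counts. Levels are given as CPM, the count of a gene scaled to the size of its library, and 3 counts amount to 0.122 to 0.174 CPM. The 8 macrophage markers summed to 18210 to 20950 CPM in SE, 18400 to 19130 CPM in SA and 18230 to 23360 CPM in WT; 3 of the 8 passed as lower in SE than in WT and 2 in SE than in SA, and 1 as higher in SA than in WT. B cell, T and NK cell, neutrophil, dendritic cell and mast cell or eosinophil markers summed to at most 2.86 CPM in any library, with Pax5, Cd3e, Cd3g, Nkg7, Ncr1, Ly6g and Mcpt4 at 0 in all 9. Fibroblast and mesothelial markers summed to 5.99 to 9.95 CPM in SE, 34.1 to 38.6 CPM in SA and 2.56 to 3.96 CPM in WT, with Msln at 0; 1 of the 7 passed as higher in SE than in WT, 3 in SA than in WT, and 3 as lower in SE than in SA. Of all tested genes 2.35% passed as higher and 2.69% as lower in SE than in WT. The shares were 1.97% higher in SA than in WT and 5.42% lower in SE than in SA. The part of the cell type markers in the results was not tested. Stat6 itself averaged 296 ± 14.6 CPM in SE, 198 ± 2.92 CPM in SA and 195.4 ± 7.53 CPM in WT (SD, n = 3 each). Its RNA passed as higher in SE than in WT (1.51-fold, edgeR adjusted p = 6.27e-06) and than in SA (1.49-fold, edgeR adjusted p = 5.15e-06). Counts per gene do not show which allele was read. In bulk RNA, fewer cells of a type and less RNA per cell cannot be told apart, and since the labels tie no library to an animal of its own, each p-value reflects only how far these samples spread.

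Between SE and WT macrophages the RNA level of 4 proteasome genes passed the test: the immunoproteasome subunits Psmb10 and Psmb8, the standard catalytic subunit Psmb6 and the base ATPase Psmc5. All 4 were higher in SE than in WT, by 1.23-fold to 1.29-fold (edgeR's quasi-likelihood test, Benjamini-Hochberg adjusted p = 0.00544 to 0.0201). A gene counts as passing where that adjusted p, taken over all tested genes, lies under 0.05. Of all tested genes 2.35% passed as higher and 2.69% as lower, against 4 of 49 and 0 of 49 proteasome genes. By DESeq2 6 were higher (Psmc3 and Psme2 beside the same 4) and 0 lower. At an unadjusted p under 0.05, 21 were higher and 0 lower, where 9.02% of all tested genes were higher. The log2 change lay above 0 for 46 of the 49, with a median of 0.14, whereas 49.2% of all tested genes lay above 0, with a median of -0.003. In 24 of the 49 every SE library lay above every WT library, as it did in 10.1% of tested genes. Among the 5657 genes that averaged 25 to 400 CPM, the range that holds 42 of the proteasome genes, the median was 0.004 and 51.4% lay above 0, against a median of 0.14 and 39 of 42 for the proteasome genes.

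Between SE and SA 5 proteasome genes passed as higher in SE, the 4 named above and Psmd8, a lid subunit, by 1.16-fold to 1.36-fold (edgeR adjusted p = 0.000608 to 0.0375). Of all tested genes 4.77% passed as higher and 5.42% as lower in SE than in SA. By DESeq2 6 proteasome genes were higher (Psmd13 beside the same 5). No proteasome gene passed as lower by edgeR or by DESeq2, and 0 were lower at an unadjusted p under 0.05, at which 17 were higher (11.4% of all tested genes). The log2 change lay above 0 for 43 of the 49, with a median of 0.12, and for 49.4% of all tested genes, with a median of -0.003. In 19 of the 49 every SE library exceeded every SA library, against 14.2% of tested genes. The comparisons of SE with WT and of SE with SA use the same SE libraries, so they are not independent of each other. With libraries scaled by their totals alone, 473 genes passed as higher and 925 as lower in SE than in SA. With TMM scaling they numbered 644 and 732. By library totals 3 proteasome genes passed, and 37 of the 49 had a log2 change above 0, with a median of 0.07. The median of all tested genes was -0.048 there.

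No proteasome gene passed between SA and WT. The number was 0 by edgeR and 0 by DESeq2, beside 1.97% of all tested genes higher and 2.1% lower by edgeR. By the unadjusted edgeR p only Psma6, an alpha ring subunit, was higher in SA (log2 change 0.14, edgeR adjusted p = 0.348), where 6.69% of all tested genes were. The log2 changes lay above 0 for 24 genes and below 0 for 25, with a median of 0.00, and 50.4% of all tested genes lay above 0. In 5 of the 49 every SA library exceeded every WT library, where 9.6% of tested genes did so. This comparison shares its WT libraries with that of SE and WT and its SA libraries with that of SE and SA.

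**Figure D1:**
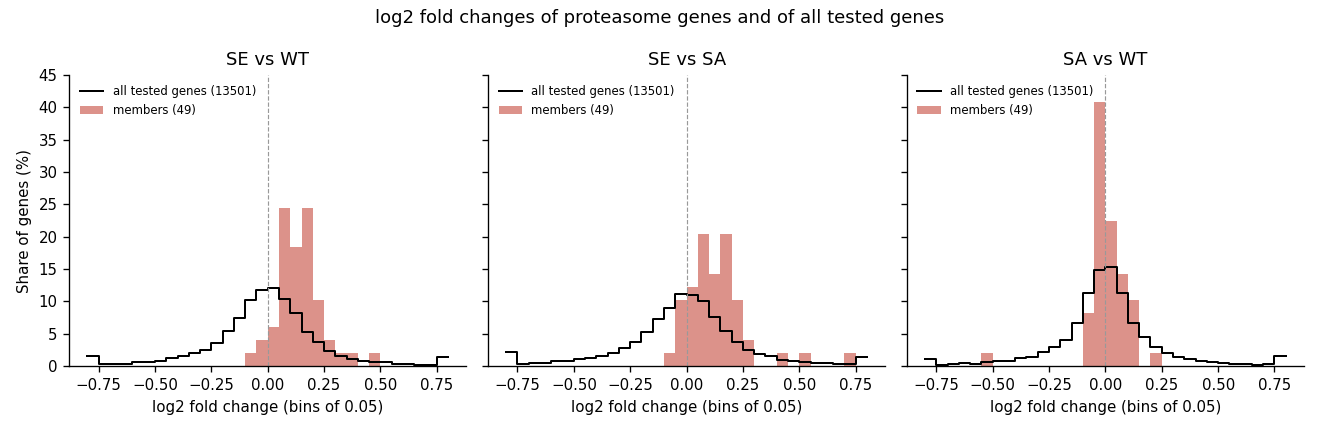
Share of genes (%) in bins of 0.05 of the log2 fold change, for the 49 tested proteasome genes (bars) and all 13501 tested genes (line) in the 3 comparisons; the outermost bins hold all values beyond them. Most bars lie to the right of 0 in SE vs WT (46 of 49 genes, median 0.14) and SE vs SA (43 of 49, median 0.12), and the bars lie around 0 in SA vs WT.

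The summed level of the 31 standard core and cap subunits, without the testis gene Psma8, was 3388.7, 3269.3 and 3386.2 CPM in SE, 3108.7, 2998.9 and 3051.5 CPM in SA, and 2975.7, 3115.8 and 3077.3 CPM in WT. Every SE library lay above all libraries of the other genotypes, and the SE mean was 9.55% above the WT mean. The SA mean differed from the WT mean by -0.105%, with overlapping libraries. The 3 immunoproteasome subunits summed to 436.2, 419.9 and 466.2 CPM in SE, 353.5, 349.2 and 349.4 CPM in SA, and 325.2, 383.3 and 349.5 CPM in WT. Again no SE library overlapped with the other genotypes, and the SE mean was 25% above the WT mean. Psmb10 made up most of this sum, with 242.4 of a mean of 440.8 CPM in SE and 187.7 of 352.7 CPM in WT. The activator subunits Psme1 and Psme2 together were 13.1% and the 7 assembly chaperones 7.8% higher in SE than in WT.

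Of the immunoproteasome genes, Psmb10 (ENSMUSG00000031897, mm10 chromosome 8, 105935735 to 105938444), whose product replaces PSMB7, had 241, 228.5 and 257.7 CPM in SE, 176.6, 175 and 182.5 CPM in SA, and 166.5, 205.8 and 190.7 CPM in WT. The SE libraries lay above all others, while the SA libraries lay within the range of WT. In SE it exceeded WT 1.29-fold (log2 change 0.37 ± 0.07, standard error, with an edgeR adjusted p = 0.00544). It exceeded SA 1.36-fold (0.45 ± 0.07, edgeR adjusted p = 0.000608). Psmb10 passed in both comparisons under all 19 alternative settings, with adjusted p of at most 0.0309 against WT and 0.00741 against SA. Between SA and WT its log2 change was -0.07, with an approximate 95% interval of -0.22 to 0.07.

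Psmb8 (ENSMUSG00000024338, chromosome 17, 34197721 to 34201454), whose product replaces PSMB5, had 128.8, 124.8 and 134.6 CPM in SE, 116.8, 113.2 and 104.8 CPM in SA, and 102.3, 110.9 and 101.9 CPM in WT. No SE library overlapped with the other genotypes, and SA and WT overlapped. Its log2 change was 0.30 ± 0.06 between SE and WT (edgeR adjusted p = 0.00803) and 0.21 ± 0.06 between SE and SA (edgeR adjusted p = 0.0375). The call against WT ended without WT3 (adjusted p = 0.0679), and that against SA ended without WT3, SA1, SA2, SA3, SE1 or SE3 in turn and with scaling by library totals (adjusted p up to 0.184). On the opposite strand the predicted gene Gm20496 shares 14.73% of the exonic bases of Psmb8, and the strand setting of the counting is not given in the sources used here.

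Psmb9 (ENSMUSG00000096727, chromosome 17, 34181987 to 34187764), whose product replaces PSMB6, had 66.4, 66.6 and 74 CPM in SE, 60.1, 61 and 62.1 CPM in SA, and 56.4, 66.6 and 56.9 CPM in WT. SE lay above SA in every library but overlapped with WT through WT2. The log2 change was 0.21 ± 0.07 between SE and WT and 0.18 ± 0.07 between SE and SA, and neither passed (edgeR adjusted p = 0.128 and 0.153). The comparison of SE with WT passed without WT2 (edgeR adjusted p = 0.0158), without WT2 and SE3 together (0.0212) and with offsets that depend on GC content, a setting chosen after seeing the data (0.0317). Psmb9 and Tap1, a subunit of the transporter that brings peptides to MHC class I, lie head to head on opposite strands and overlap by 212 bases. Psmb8 starts 495 bases beyond the other end of Tap1, in the MHC class II region.

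**Figure D2:**
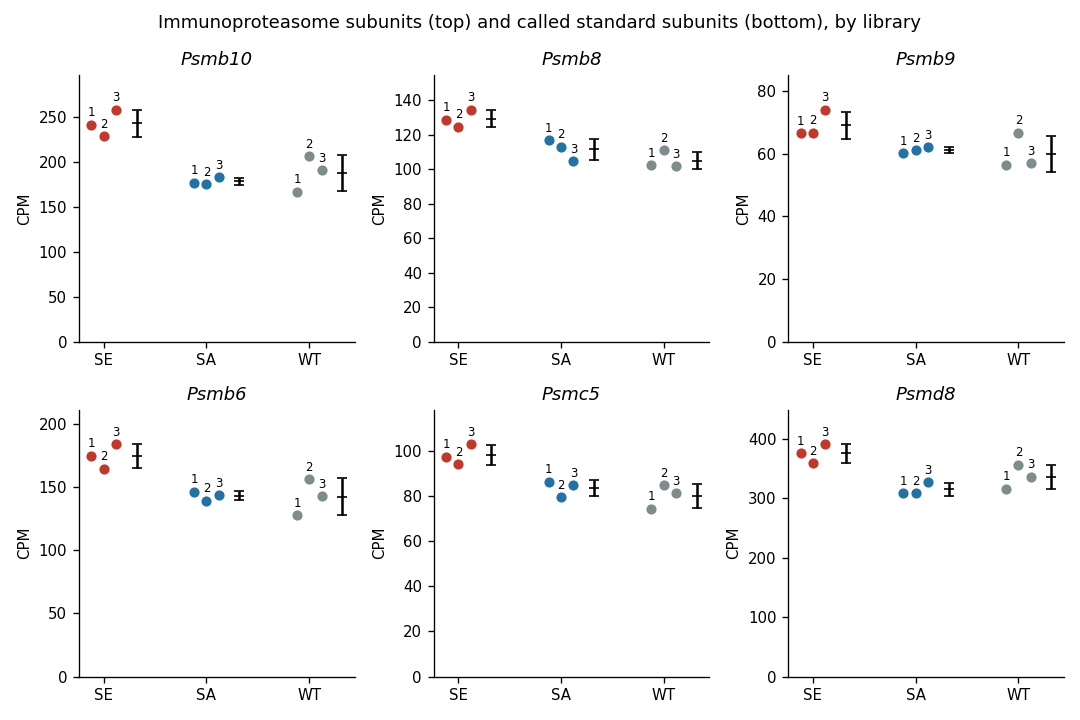
CPM in each library (numbered points), with mean and SD beside them, of the 3 immunoproteasome subunits (top) and the 3 standard subunits that passed in a comparison (bottom), in SE, SA and WT. For Psmb10 the 3 SE libraries sit between 228.5 and 257.7 CPM, above all SA and WT libraries, whereas for Psmb9 the library WT2 reaches 66.6 CPM and meets the SE libraries.

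Promoter sequences of the 5 genes that passed and of Psmb9 are shown because these genes passed between SE and another genotype or, for Psmb9, complete the immunoproteasome. Each line holds the 250 bases before the RefSeq start of the gene (build GRCm38.p6, the assembly of mm10), 5′ to 3′ on the strand of the gene. That start need not be the first base of the GENCODE gene in which reads were counted: all 250 bases shown for Psmb8 and Psmb9 lie inside the GENCODE span, as do 52 for Psmb10, 31 for Psmc5, 28 for Psmd8 and 0 for Psmb6. Capitals mark a match to the spaced palindromes bound by STAT proteins (TTCNNNNGAA in Psmb10, the spacing STAT6 favours, and TTCNNNGAA in Psmb8), to the CCAAT box bound by NF-Y (on the reverse strand in Psmb9), and to the antioxidant response core TGACNNNGC bound by NRF factors (Psmb6). Psmc5 and Psmd8 held no match to the motifs searched. The positions are chr8:105938393-105938642 (minus strand) for Psmb10, chr17:34197945-34198194 (plus) for Psmb8, chr17:34187331-34187580 (minus) for Psmb9, chr11:70525107-70525356 (plus) for Psmb6, chr11:106255935-106256184 (plus) for Psmc5 and chr7:29180674-29180923 (minus) for Psmd8.
Psmb10: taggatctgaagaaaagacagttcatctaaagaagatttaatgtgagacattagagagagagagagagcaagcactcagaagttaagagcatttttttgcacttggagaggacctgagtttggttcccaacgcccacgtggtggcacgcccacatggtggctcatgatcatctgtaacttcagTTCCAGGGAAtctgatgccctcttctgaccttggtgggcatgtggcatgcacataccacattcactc
Psmb8: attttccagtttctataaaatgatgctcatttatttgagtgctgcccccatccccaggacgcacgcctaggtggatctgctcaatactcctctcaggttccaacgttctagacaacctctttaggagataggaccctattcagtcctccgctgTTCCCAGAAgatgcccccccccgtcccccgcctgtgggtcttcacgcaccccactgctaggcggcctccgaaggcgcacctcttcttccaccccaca
Psmb9: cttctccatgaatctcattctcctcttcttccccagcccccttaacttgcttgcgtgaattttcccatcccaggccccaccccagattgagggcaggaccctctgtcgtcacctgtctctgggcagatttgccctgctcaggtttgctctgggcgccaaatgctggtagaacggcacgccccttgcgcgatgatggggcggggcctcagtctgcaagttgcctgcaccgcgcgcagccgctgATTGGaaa
Psmb6: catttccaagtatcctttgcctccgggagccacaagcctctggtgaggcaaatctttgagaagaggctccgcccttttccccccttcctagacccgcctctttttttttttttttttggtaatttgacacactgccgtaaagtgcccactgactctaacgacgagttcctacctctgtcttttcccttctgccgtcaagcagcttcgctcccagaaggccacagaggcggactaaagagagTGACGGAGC
Psmc5: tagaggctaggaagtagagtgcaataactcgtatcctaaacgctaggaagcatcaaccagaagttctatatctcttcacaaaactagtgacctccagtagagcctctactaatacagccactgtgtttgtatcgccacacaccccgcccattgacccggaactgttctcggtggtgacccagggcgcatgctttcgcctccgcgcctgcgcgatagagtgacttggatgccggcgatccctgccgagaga
Psmd8: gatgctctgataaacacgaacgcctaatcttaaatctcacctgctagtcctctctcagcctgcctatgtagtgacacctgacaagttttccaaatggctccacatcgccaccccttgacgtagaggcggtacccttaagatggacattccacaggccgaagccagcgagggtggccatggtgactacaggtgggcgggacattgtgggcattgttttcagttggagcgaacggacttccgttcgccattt

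Windows of 250 bases were found for 42 of the 50 genes, 45 windows in all, and each motif was searched on both strands. TTCNNNNGAA occurred in 1 of these 45 windows, that of Psmb10, and in 5.85% of all 32851 RefSeq windows of the same length. TTCNNNGAA occurred in the windows of Psmb8 and Psmg1 and in 7.02% of all windows. The interferon response motif GAAANNGAAA occurred in Psmb3, Psmd4 and Psmd9 (2.98% of all windows). TGACNNNGC occurred in 5 genes, Psmb5, Psmb6, Psmc6, Psmd12 and Psmd9 (10.2%), and CCAAT in 15 genes (33.8%). The matches are descriptions of letters in these windows and do not show binding.

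All 7 standard beta ring genes had log2 changes above 0 in SE over WT and in SE over SA (medians 0.16 and 0.12). Among all tested genes 49.2% and 49.4% did so, and 2.35% and 4.77% passed as higher. Of the 7, 1 gene passed as higher in SE than in WT and than in SA. That gene, Psmb6 (ENSMUSG00000018286, chromosome 11, 70525367 to 70527858), encodes the subunit that cuts after acidic residues. It had 174.9, 164.8 and 183.9 CPM in SE, 146.5, 139.4 and 143.6 CPM in SA, and 127.6, 156.6 and 143 CPM in WT. All SE libraries exceeded the others, and the SA libraries lay inside the range of WT. Its log2 change was 0.30 ± 0.07 over WT (edgeR adjusted p = 0.0201) and 0.29 ± 0.07 over SA (edgeR adjusted p = 0.0152). The call against WT ended without WT1, WT3, SE1 or SE3 in turn, without WT1 and SE2 together, and in a fit of SE and WT alone (adjusted p up to 0.0932). The call against SA ended without SA1, SA2, SA3 or SE1 in turn (adjusted p up to 0.0843).

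Psmb5, the subunit with chymotrypsin-like activity, had 86.1, 77.3 and 84.2 CPM in SE, 79.7, 73.7 and 74.6 CPM in SA, and 69.2, 73.3 and 77.2 CPM in WT. Its SE libraries lay only just above those of WT, at 77.3 against 77.2 CPM at the closest, and the log2 change of 0.17 did not pass (edgeR adjusted p = 0.158). Psmb7, the subunit with trypsin-like activity, had 52.8, 50.2 and 55.3 CPM in SE, 53.2, 51.9 and 50.2 CPM in SA, and 47.4, 43.3 and 52.2 CPM in WT, with all genotypes overlapping. The structural subunits Psmb3 and Psmb4 had log2 changes of 0.20 and 0.16 between SE and WT (edgeR adjusted p = 0.136 and 0.19), and Psmb1 stood at 0.02 with an interval of -0.09 to 0.13.

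The ratio of each immunoproteasome subunit to the standard subunit it replaces was taken per kilobase of exon in each library, as a description. Psmb8 stood at 0.398, 0.429 and 0.425 of Psmb5 in SE, 0.389, 0.408 and 0.374 in SA, and 0.393, 0.402 and 0.351 in WT, with overlap. Psmb9 stood at 0.194, 0.207 and 0.206 of Psmb6 in SE, 0.21, 0.224 and 0.221 in SA, and 0.226, 0.217 and 0.203 in WT. Its SE ratios lay below those of SA in every library. Psmb10 stood at 9.16, 9.13 and 9.35 times Psmb7 in SE, 6.67, 6.77 and 7.29 times in SA, and 7.05, 9.53 and 7.33 times in WT. The SE ratios lay above all SA ratios, and WT2 exceeded them. These values depend on the length used: with the longest transcript in place of all exons the mean ratio of Psmb8 to Psmb5 over the 9 libraries was 0.703 rather than 0.397. Psmb10 and Psmb7 also differ in GC content (56.52% and 40.79%). With the GC-dependent offsets, chosen after seeing the data, the log2 change between SE and SA was 0.38 rather than 0.45 for Psmb10. For Psmb7 it was 0.10 rather than 0.03. Between SE and WT it was 0.33 rather than 0.37 for Psmb10 and 0.20 rather than 0.15 for Psmb7. Psmb5 shares 12.12% of its exonic bases with Mir686 on the same strand. Psmb7, Psmb8 and Psmb9 share 11.84%, 14.73% and 5.79% with genes on the opposite strand. How reads in these stretches were counted is not given in the sources used here. The ratios were not tested.

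Among the 8 alpha ring genes, which form the gate of the core, none passed in any comparison by edgeR or DESeq2. At an unadjusted edgeR p under 0.05, 2 were higher in SE over WT, 1 in SE over SA and 1 in SA over WT. The shares of all tested genes were 9.02%, 11.4% and 6.69%. All 8 lay above 0 in SE over WT, with a median of 0.11, where 49.2% of all tested genes did. The 7 standard members ranged from 0.06 (Psma7) to 0.18 (Psma3). Psma3 had 72, 71.1 and 67.3 CPM in SE, 62.8, 63.7 and 62.9 CPM in SA, and 63.4, 57.2 and 64.6 CPM in WT. All its SE libraries exceeded the others (edgeR adjusted p = 0.123 against WT and 0.164 against SA). Psma6 ran differently, with 94, 83.1 and 81.9 CPM in SE, 89.5, 91.6 and 85.9 CPM in SA, and 78.5, 79.1 and 84.2 CPM in WT, so that SA and not SE stood apart from WT. Psma8, the alpha subunit of testis proteasomes, had 9 to 26 counts per library. Its log2 change of 0.74 between SE and SA had an approximate interval of 0.04 to 1.43. It did not pass (edgeR unadjusted p = 0.0549, adjusted p = 0.231). Psmb11, the catalytic subunit of the thymic cortex, had 0 counts in every library, which at this depth allows up to 0.122 to 0.174 CPM for counting error.

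The base of the cap holds the ATPase ring that unfolds substrates. Of its 6 ATPases 1 passed as higher in SE than in WT and in SA, and the medians of the log2 changes were 0.18 and 0.15. The shares of all tested genes that passed as higher were 2.35% and 4.77%. Psmc5 (ENSMUSG00000020708, chromosome 11, 106256154 to 106263120) had 97.3, 94.1 and 102.7 CPM in SE, 86.2, 79.3 and 84.7 CPM in SA, and 74.3, 84.8 and 81 CPM in WT. The SE libraries lay above all others. The log2 change was 0.29 ± 0.07 over WT (edgeR adjusted p = 0.0136) and 0.23 ± 0.07 over SA (edgeR adjusted p = 0.0318). The call against WT ended without WT1, WT3 or SE1 in turn and without WT1 and SE2 together (adjusted p up to 0.0706). The call against SA ended without WT3, SE1, SE3 or any SA library in turn and with scaling by library totals (adjusted p up to 0.169).

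Psmc3, another ATPase, lay just outside the threshold in SE over WT (log2 change 0.22, edgeR adjusted p = 0.0513), with 132.3, 125.2 and 134 CPM in SE, 120.1, 107.4 and 115.4 CPM in SA, and 106.5, 117.4 and 112.4 CPM in WT. Its SE libraries exceeded all others. Psmc2 and Psmc4 likewise did not overlap between SE and either other genotype, with log2 changes over WT of 0.16 and 0.19 (edgeR adjusted p = 0.116 for both). Psmc6 (0.04) and Psmc1 (0.10) overlapped. The base scaffold and ubiquitin receptor genes Psmd1, Psmd2 and Psmd4 had log2 changes of 0.06, 0.07 and 0.14 between SE and WT, and none passed by edgeR or DESeq2 in any comparison or had an unadjusted p under 0.05.

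In the lid, which removes ubiquitin chains, 1 of 8 genes passed as higher in SE than in SA, against 4.77% of all tested genes. Psmd8 (ENSMUSG00000030591, chromosome 7, 29174188 to 29180701), a structural lid subunit, had 376.3, 359.3 and 390.7 CPM in SE, 309.2, 308.7 and 326.6 CPM in SA, and 316.3, 356.7 and 336.2 CPM in WT. The SE libraries lay above all others, though WT2 came close to SE2. The log2 change was 0.25 ± 0.06 between SE and SA (edgeR adjusted p = 0.0109), a call that ended without SA1 or SA2 (adjusted p up to 0.0665). Against WT the change of 0.16 did not pass (edgeR adjusted p = 0.148). Psmd13, another lid subunit, lay just outside the threshold in SE over SA (log2 change 0.20, edgeR adjusted p = 0.0501). DESeq2 called it there. Psmd14, the deubiquitinase of the lid, stood at 0.18 (edgeR adjusted p = 0.118). Psmd6, Psmd7, Psmd11 and Psmd12 had log2 changes of 0.00 to 0.06 between SE and WT and overlapped in all comparisons.

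**Figure D3:**
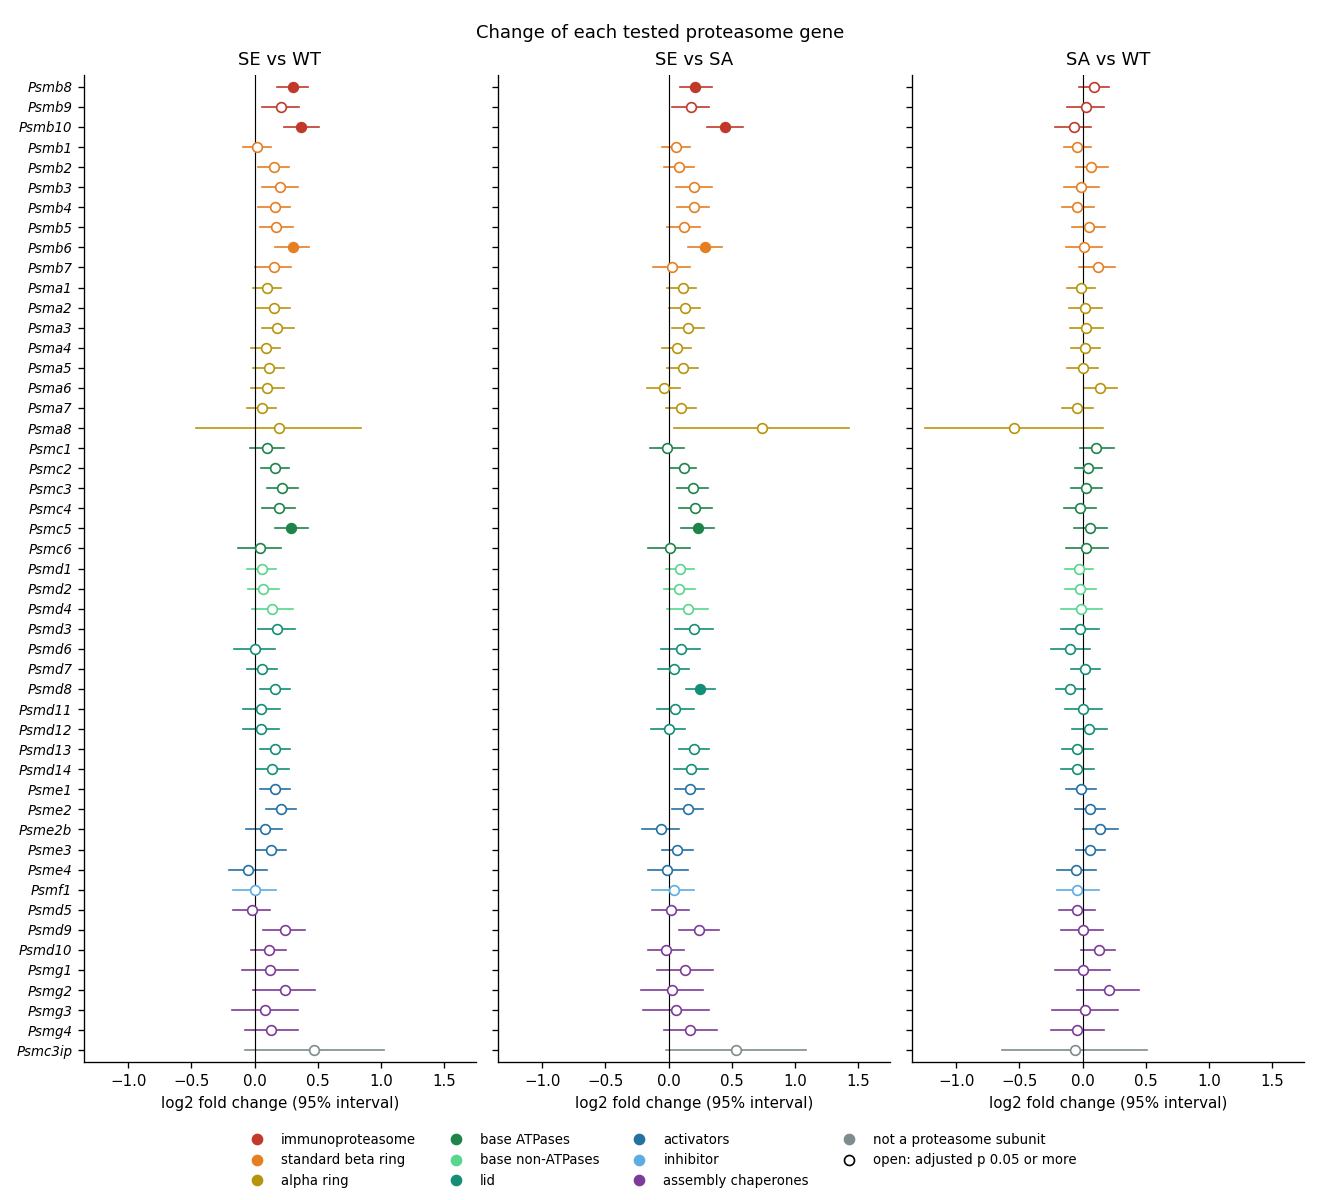
Log2 fold change with an approximate 95% interval of each of the 49 tested genes in SE vs WT, SE vs SA and SA vs WT, coloured by role; filled points passed at an adjusted p under 0.05. Filled points are 4 in SE vs WT, 5 in SE vs SA and 0 in SA vs WT.

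The activators open the core without ubiquitin, and none of the 5 passed by edgeR. Psme1, which with Psme2 forms the activator induced by interferon gamma, had 180.2, 178.6 and 184.8 CPM in SE, 164.4, 159.8 and 159.5 CPM in SA, and 152, 174.8 and 160.3 CPM in WT. Psme2 had 106.1, 110.2 and 99.6 CPM in SE, 94.8, 98 and 92.2 CPM in SA, and 94.5, 87.5 and 90.8 CPM in WT. For both genes the SE libraries lay above all others, yet the log2 changes of 0.16 and 0.21 between SE and WT stayed outside the threshold (edgeR adjusted p = 0.147 and 0.0563). DESeq2 called Psme2 in that comparison (adjusted p = 0.0392). Psme3, the nuclear activator, stood at 0.13 (edgeR adjusted p = 0.249), and Psme4, the activator that acts on histones, at -0.05 with an interval of -0.20 to 0.10. Psme4 had 107.8, 107.9 and 111.3 CPM in SE, 106.1, 112.7 and 109.6 CPM in SA, and 122.5, 95.7 and 119.9 CPM in WT, with WT2 far below the other WT libraries. Psme2b, a gene with 1 exon, is 99.4% identical to Psme2 over 794 bases, so reads could have been split between them. The values of both genes are therefore uncertain. Psme2b stood at 0.08 between SE and WT and at -0.06 between SE and SA.

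Psmf1, which encodes an inhibitor of the core, had 31.5, 27.2 and 32.9 CPM in SE, 32, 30.2 and 27.2 CPM in SA, and 31.2, 31.1 and 29.4 CPM in WT, and overlapped in all comparisons. None of the 7 assembly chaperones passed by edgeR or DESeq2. Psmd9, a chaperone of the base, came nearest, with 27.9, 25.9 and 26.9 CPM in SE, 23.4, 22.2 and 22.7 CPM in SA, and 22.6, 25.4 and 20.7 CPM in WT. Its SE libraries exceeded all others, with log2 changes of 0.24 over both WT and SA (edgeR adjusted p = 0.12 and 0.0789), but 25.51% of its exonic bases are shared with the predicted gene Gm26745 on the opposite strand. Psmd10 and Psmd5, further chaperones of the base, stood at 0.11 and -0.02 between SE and WT. The chaperones of the core, Psmg1 to Psmg4, stood at 0.12, 0.24, 0.08 and 0.13, with intervals that all included 0 and libraries that overlapped. Psmc3ip had 17 to 39 counts per library and a log2 change of 0.47 between SE and WT (edgeR adjusted p = 0.408).

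Levels differed widely among the genes. Per kilobase of exon, taken over all annotated exons of a gene, Psmb10 was highest, with 142 ± 8.6 CPM per kb in SE, 104 ± 2.32 in SA and 110 ± 11.6 in WT. Psmd8 followed with 123 ± 5.13 CPM per kb in SE, 103 ± 3.33 in SA and 110 ± 6.6 in WT, and the libraries of these genes overlapped over their ranges of 97.7 to 151 and 101 to 128 CPM per kb. Psmb5 and Psmb6 came next, at means over all libraries of 85.9 and 81.9 CPM per kb, whose ranges also overlapped. The order depends on the length used: per kilobase of the longest transcript Psmd8 came first at a mean of 173 CPM per kb, then Psmb6 at 159 and Psmb10 at 155, and Psmb5 stood at 85.9. Over all exons, Psmb8 and Psmb9 averaged 34.1 and 17.3 CPM per kb, and Psmb7 14.8. By that measure the lowest expressed members besides Psmb11 were Psmd9 (3.34 CPM per kb), Psmg3 (2.19), Psmc3ip (0.664) and Psma8 (0.313). Within a genotype the 47 members of at least 5 CPM varied with a median coefficient of variation of 4.81% in SE, 4.07% in SA and 4.89% in WT, against 6.83%, 4.9% and 6.76% for all genes at that level.

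**Figure D4:**
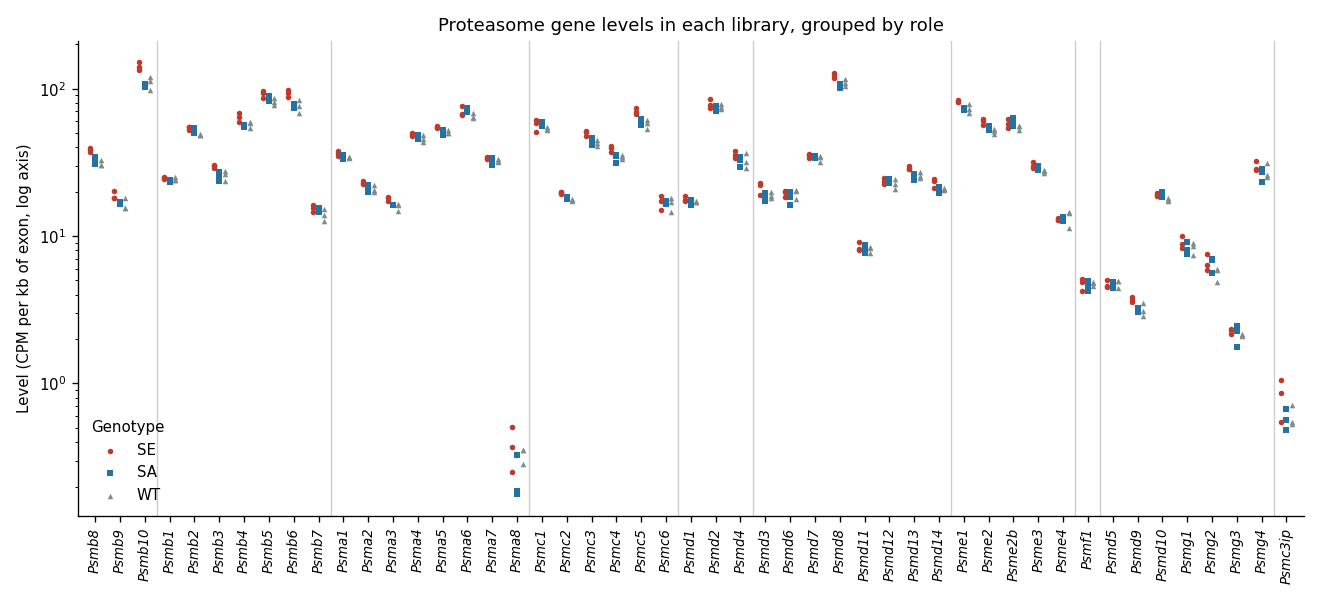
Level of each tested gene in each of the 9 libraries, in CPM per kilobase of exon on a log axis, grouped by role, with SE, SA and WT marked by colour and shape. Psmb10 and Psmd8 stand highest, at means of 119 and 112 CPM per kb, and Psma8 lowest at 0.313; with the longest transcript as length Psmd8 and Psmb6 stand above Psmb10.

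Other genes of the pathway were read beside the members. Of all tested genes 2.35% passed as higher in SE than in WT and 4.77% in SE than in SA. Of 18 tested genes for proteasome proteins outside the Psm names, 1 passed as higher in SE than in SA: Adrm1, a ubiquitin receptor of the cap, with 85.9, 78.4 and 88.4 CPM in SE, 69.4, 64.7 and 72.6 CPM in SA, and 65.7, 81.1 and 72.8 CPM in WT (log2 change 0.29 over SA, edgeR adjusted p = 0.0249). Its SE libraries lay above SA and overlapped with WT through WT2. Between SE and WT none of the 18 passed by edgeR or DESeq2. Of the 18, 4 were higher at an unadjusted p under 0.05 (9.02% of all tested genes), and the median log2 change of the 18 was 0.07. Of 12 genes for ubiquitin itself and the segregase that delivers substrates, 0 passed by edgeR in any comparison. At an unadjusted p under 0.05 there were 0 in SE over WT, 1 in SA over WT and 1 in SE over SA. Among all tested genes 9.02%, 6.69% and 11.4% were higher at that p. DESeq2 called 1 of the 12, in SE over SA. The ubiquitin gene Ubb came nearest in SE over SA (0.30, edgeR adjusted p = 0.0771). Of 15 regulators of proteasome genes, Nfya, a subunit of NF-Y, passed in SE over SA (0.26, edgeR adjusted p = 0.0254). The other NF-Y subunits went opposite ways there, Nfyc at 0.21 and Nfyb at -0.24 (edgeR adjusted p = 0.0867 and 0.201). Between SE and WT Nfya stood at 0.11 (edgeR adjusted p = 0.44). Nfe2l1, the factor that restores proteasome genes when the proteasome is inhibited, stood at 0.05 between SE and WT with overlapping libraries.

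Of 20 interferon signalling genes 2 were higher and 1 was lower in SE than in WT, with a median log2 change of 0.02. Of all tested genes 2.35% passed as higher and 2.69% as lower there. Socs1, a feedback inhibitor of cytokine receptors, had 32, 34.1 and 34.8 CPM in SE, 19.4, 20.7 and 19 CPM in SA, and 19.8, 21.7 and 19.2 CPM in WT. Its SE libraries stood well apart (log2 change 0.74 over WT and 0.77 over SA). Usp18, a brake on interferon receptors, was 1.24-fold higher and the interferon gamma receptor chain Ifngr1 1.16-fold lower in SE libraries than in those of WT (edgeR adjusted p = 0.0351 and 0.031). Nlrc5, which drives MHC class I genes, did not pass in any comparison (log2 change 0.20 between SE and WT, edgeR adjusted p = 0.183). In SE over SA 3 of the 20 were higher and 3 lower, against 4.77% and 5.42% of all tested genes. The higher ones included Irf1 (log2 change 0.19, edgeR adjusted p = 0.0425), which stood at 0.09 between SE and WT (edgeR adjusted p = 0.45). The lower ones included Irf7 (log2 change -0.45). Irf7 was the gene of this list that passed as higher in SA than in WT (0.40, edgeR adjusted p = 0.000661), against 1.97% of all tested genes. Of 11 genes of MHC class I and peptide loading, H2-K1 exceeded WT levels in SE (0.25, edgeR adjusted p = 0.0251) and H2-D1 exceeded SA levels in SE (0.22, edgeR adjusted p = 0.0381). Tap1, which neighbours Psmb8 and Psmb9, had log2 changes of 0.21 between SE and WT and 0.08 between SE and SA (edgeR adjusted p = 0.0997 and 0.532).

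Libraries of the same genotype differed along the GC content of the transcripts. Across the 47 members of at least 5 CPM, from Psmc6 (36.97% GC) to Psma7 (57.36%), the deviation of a library from its genotype mean correlated with GC at r = -0.28, -0.33 and 0.49 in SE1, SE2 and SE3, at 0.04, -0.44 and 0.34 in SA1, SA2 and SA3, and at -0.56, 0.66 and -0.41 in WT1, WT2 and WT3. Over 9553 genes of at least 5 CPM the same correlations were -0.18, -0.59 and 0.62 in SE, 0.06, -0.36 and 0.32 in SA, and -0.61, 0.68 and -0.29 in WT. The genes share each library, so these are descriptions. SE3 and WT2 stood at one end of the third principal component and SE2 and WT1 at the other. The log2 change of the members between SE and WT correlated with GC at 0.41 and that between SE and SA at 0.51, against 0.2 and 0.24 over all those genes. A fit with offsets that depend on GC was a setting chosen after seeing the data. In that fit 10 members passed in SE over WT, 14 in SE over SA and 0 in SA over WT, all of them higher. The medians over members were 0.13, 0.11 and 0.00. All genes that passed numbered 1421, 2124 and 1001 in that fit, against 680, 1376 and 549 without the offsets. Leaving out SE3 and WT2 gave 12, 12 and 0 members and 1215, 1903 and 903 genes in the same order. Leaving out SE2 and WT1 gave 2, 9 and 0 members and 372, 1447 and 507 genes.

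**Figure D5:**
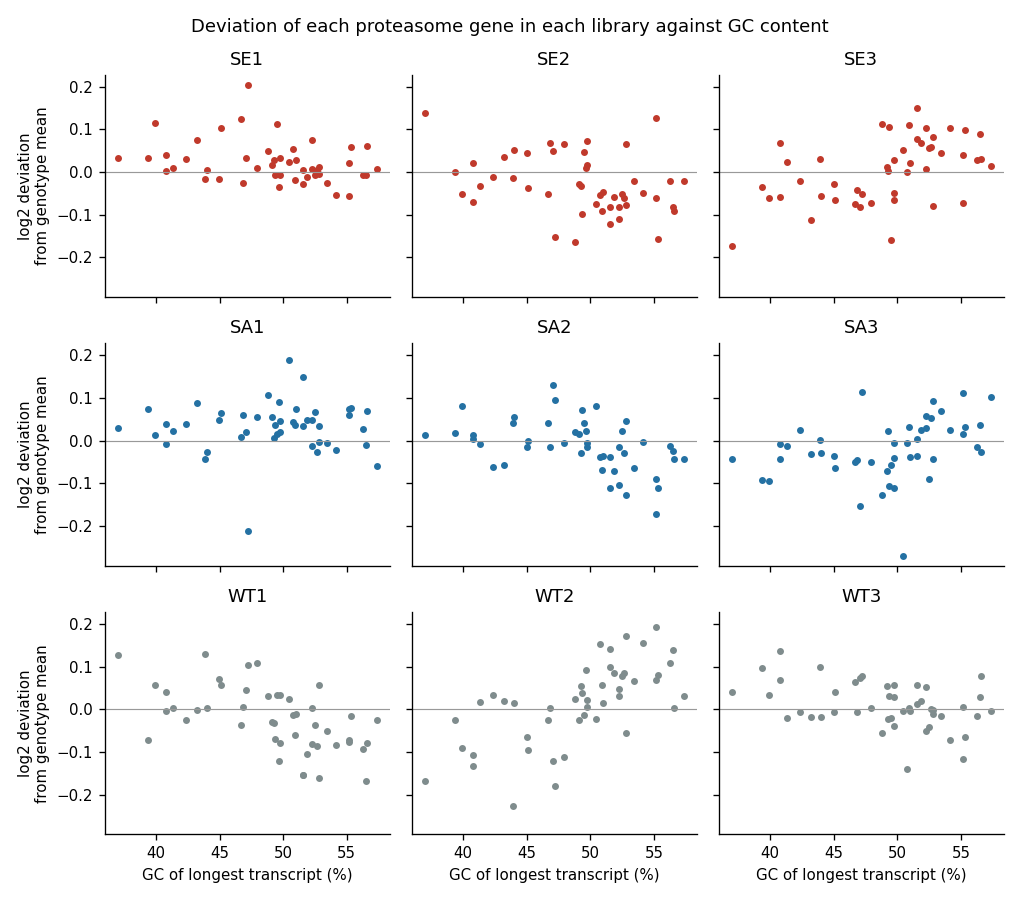
Log2 deviation of each of the 47 members of at least 5 CPM from its genotype mean in each library against the GC content (%) of its longest transcript, with SE libraries in the top row, SA in the middle and WT in the bottom row. The points slope upward in SE3 and WT2 (r = 0.49 and 0.66) and downward in SE2 and WT1 (r = -0.33 and -0.56); among the others they slope upward in SA3 (0.34) and downward in SE1 (-0.28), SA2 (-0.44) and WT3 (-0.41).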

How the data were processed

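The authors deposited raw read counts per Ensembl gene for the 9 libraries. Alignment with HISAT2 2.1.0 to mm10 and counting with featureCounts are named in the submitters' processing notes. Their annotation, strand setting and treatment of multi-mapping reads are not stated in these sources. GENCODE M21 held 55141 of the 55401 gene IDs, and gave their symbols, positions and exon lengths; 260 found no match. The counts were fitted with edgeR 4.0.16 under R 4.3.3: a filterByExpr step on genotype (minimum count 10, minimum total 15) was followed by TMM scaling and a test in 1 robust quasi-likelihood fit of all 9 libraries with genotype as the only factor (6 residual degrees of freedom, biological coefficient of variation 6.75%). Adjusted p-values are Benjamini-Hochberg values over all 13501 tested genes, 2-sided, and no list was tested as a list. CPM values are TMM-scaled. When the steps were run on simulated counts, most large changes were recovered, most small ones in the SE comparisons, of the size of those reported here, were missed, and false calls exceeded the nominal share. DESeq2 1.42.0 and other scalings, filters, designs and left-out libraries served as alternatives. The members, the role groups and the other gene lists were chosen with earlier results of these data known. Named were the catalytic, immunoproteasome, activator, inhibitor and chaperone genes, every gene that passed, and in each role group the members with the highest and lowest level and the smallest p. Of the other lists the rule took up to 2 higher and 2 lower genes that passed, or the member with the smallest p. Further names (among them Psmc3, Psmd13, Psmb1, Nfe2l1, Irf1, Nlrc5 and Tap1) were chosen after their values were seen. Promoter sequences come from RefSeq (GRCm38.p6). The limit of 3 counts covers counting error only.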

Additional observations from a re-analysis of the deposited data

How the results depend on the processing

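Psmb10 passed under all 19 settings in both SE comparisons, and no member passed as lower in SE, or passed between SA and WT, under any setting. The number of members that passed moved more. Leaving out 1 library gave 1 to 9 members in SE vs WT and 1 to 11 in SE vs SA, and 292 to 1097, 297 to 652 and 781 to 1762 genes in SE vs WT, SA vs WT and SE vs SA. In SE vs WT the counts were 1 without WT3, 2 without WT1 or SE1 and 9 without WT2. In SE vs SA they were 1 without SA1 or SA2, 2 without SA3 or SE1, 3 without WT3, 8 without SE2 and 11 without WT2. Offsets by GC, chosen after seeing the data, gave 10 members in SE vs WT and 14 in SE vs SA, and 1421, 1001 and 2124 genes in SE vs WT, SA vs WT and SE vs SA. Leaving out WT2 and SE3 gave 12 members in each SE comparison, with 1215 genes in SE vs WT and 903 in SA vs WT, and leaving out WT1 and SE2 gave 2 members and 372 genes in SE vs WT and 9 members in SE vs SA. The fit of SE and WT alone called 438 genes. Scaling by library totals left 3 members in SE vs SA. The cause of these moves was not tested. The libraries of different genotypes share only a replicate number: deviations of same-numbered libraries correlated at -0.195 to 0.105. With the replicate number as a block, the members that passed numbered 4 in SE vs WT, 3 in SE vs SA and 0 in SA vs WT; in SE vs SA Psmb8 and Psmc5 no longer passed (adjusted p = 0.0641 and 0.0537).

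Changes near 0 turned sign. In SA vs WT, leaving out 1 library gave log2 changes of -0.06 to 0.08 for Psmb6, -0.01 to 0.11 for Psmb9, -0.05 to 0.05 for Psme1 and -0.15 to 0.02 for Psme4. Without WT1 and SE2 these were -0.06 for Psmb6, -0.01 for Psmb9 and 0.02 for Psme4, and Psme1 stood at 0.05 without WT2 and SE3, 0.02 with library totals and 0.02 with GC offsets. In SE vs SA, Psmb7 ran from -0.01 to 0.06 and Psme4 from -0.03 to 0.01 with 1 library left out; Psmb7 stood at -0.02 with library totals and -0.01 without WT2 and SE3, and Psme4 at 0.04 with GC offsets. In SE vs WT, Psme4 ran from -0.15 to 0.01 with 1 library left out and stood at 0.02 without WT1 and SE2. None of these passed. With the longest transcript as length, the mean ratio over the 9 libraries was 0.703 for Psmb8 to Psmb5 and 0.139 for Psmb9 to Psmb6, against 0.397 and 0.212 with all exons. With 3 libraries a genotype, a gene that missed the threshold is not shown to be equal between genotypes.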
